A study of Mus musculus with 12 samples.

Results

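Seed-shifted 5′ isomiRs are sequenced forms of a microRNA (miRNA) that begin at another nucleotide than the commonest form of the same hairpin arm. They were taken here as every small RNA tag (a distinct sequenced insert with its read count) that matched an annotated mouse miRNA hairpin exactly over its full length but started away from the dominant start, the start with most counts on that arm over all 12 libraries. Arms with 1000 or more exact counts were kept. By this rule 3402 tags with 1855731 counts were members, on 234 arms with 29957456 counts, out of 17196409 distinct tags and 70809892 accepted reads in the series. The dominant start of the same arms was held by 1604 tags, and 233 of the 234 arms had at least 1 shifted count. The members were selected on the read counts themselves, so the height of a shifted share is given as a description with no test. Tests are kept for time course, time after treatment and tag length, which the rule did not use. They still rest on a dominant start that was set from the same counts, and tags under 18 nt were left out.

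Small RNA came from the hippocampus of individual C57BL/6NCrl mice. Untreated mice (NT) gave 2 libraries, and mice killed after electroconvulsive shock (ECS) gave 2 per delay, the delays being 0.5 h, 1 h, 3 h, 6 h and 24 h. The shock is a current that sets off a seizure and depolarizes neurons across the brain. The labels give a replicate number, which by the study's account stands for 2 time courses of 6 libraries each. It is written here as the last part of each library name. The libraries hold whole hippocampus with all its cell types, and the shock was the only treatment.

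A miRNA hairpin is cut by Drosha in the nucleus and by Dicer in the cytoplasm, and 1 strand of the resulting duplex is loaded into an Argonaute protein. Drosha leaves the 5′ end of the strand from the 5′ arm (5p) and Dicer leaves the 5′ end of the strand from the 3′ arm (3p). Target mRNAs are recognized mainly through the seed, bases 2 to 8 counted from the 5′ end. A start moved by a single nucleotide therefore gives the same hairpin another seed, which is why 5′ isomiRs are counted apart from the commoner variation at the 3′ end.

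The most counted tag of each start is shown for the arms on which the values below turn, with the seed in capitals and with shifts counted in nt from the dominant start. The first group holds the miR-101 arms and miR-144, in which a shifted start carries the seed of another arm. Mir101a lies on chromosome 4 (101346945 to 101347027, minus strand, in an exon of the lincRNA E130102H24Rik), Mir101b on chromosome 19 (29135279 to 29135375, plus strand, in an intron of Rcl1) and Mir144 on chromosome 11 (78073005 to 78073070, plus strand, outside annotated genes), all in GRCm38.
miR-101a-3p, dominant start: gTACAGTActgtgataactga
miR-101a-3p, 1 nt downstream: tACAGTACtgtgataactga
miR-101b-3p, dominant start: tACAGTACtgtgatagctga
miR-101b-3p, 1 nt upstream: gTACAGTActgtgatagctga
miR-144-3p, dominant start: tACAGTATagatgatgta
miR-144-3p, 1 nt upstream: cTACAGTAtagatgatgta

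The second group holds arms on which another start came close to the dominant one or passed it in some libraries. Mir127 (chromosome 12, 109592846 to 109592915), Mir411 (109710175 to 109710256), Mir300 (109724313 to 109724391), Mir485 (109734902 to 109734974) and Mir409 (109743158 to 109743236) all lie on the plus strand in the imprinted Dlk1-Dio3 region, where Mir485 overlaps an exon and Mir409 an intron of the lincRNA Mirg and the other hairpins lie outside annotated genes. miR-9-3p comes from 3 hairpins, Mir9-1 (chromosome 3, 88215598 to 88215686, intron of Gm3764), Mir9-2 (chromosome 13, 83738814 to 83738885, exon of C130071C03Rik) and Mir9-3 (chromosome 7, 79505264 to 79505353, intron of Mir9-3hg), all on the plus strand. Mir330 (chromosome 7, 19181465 to 19181562, plus strand) overlaps an exon of Eml2 and Mir383 (chromosome 8, 38252133 to 38252202, minus strand) an intron of Sgcz.
miR-9-3p, dominant start: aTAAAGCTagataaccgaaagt
miR-9-3p, 1 nt downstream: tAAAGCTAgataaccgaaagt
miR-127-5p, dominant start: cTGAAGCTcagagggctctga
miR-127-5p, 2 nt downstream: gAAGCTCAgagggctctgatt
miR-127-5p, 3 nt downstream: aAGCTCAGagggctctgatt
miR-411-5p, dominant start: aTAGTAGAccgtatagcgta
miR-411-5p, 1 nt downstream: tAGTAGACcgtatagcgtac
miR-409-3p, dominant start: gAATGTTGctcggtgaacccct
miR-409-3p, 1 nt downstream: aATGTTGCtcggtgaacccct
miR-300-3p, dominant start: tATGCAAGggcaagctctct
miR-300-3p, 4 nt downstream: cAAGGGCAagctctcttcga
miR-485-3p, dominant start: cATACACGgctctcctctcttc
miR-485-3p, 2 nt upstream: gTCATACAcggctctcctctct
miR-330-3p, dominant start: cAAAGCACagggcctgcaga
miR-330-3p, 1 nt upstream: gCAAAGCAcagggcctgcaga
miR-383-5p, dominant start: cAGATCAGaaggtgactgtg
miR-383-5p, 1 nt downstream: aGATCAGAaggtgactgtggct

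The third group holds 3 of the most counted arms and miR-140-3p, whose shifted share differed between the time courses. miR-124-3p is made from Mir124a-1 (chromosome 14, 64590657 to 64590741), Mir124a-2 (chromosome 3, 17795662 to 17795770) and Mir124a-3 (chromosome 2, 180894040 to 180894107), each on the plus strand in an exon of a lincRNA. Mir1839 (chromosome 7, 81529916 to 81529988, plus strand) is also annotated as a small Cajal body RNA inside an exon of 2900076A07Rik. Mir29a (chromosome 6, 31062660 to 31062747, minus strand) lies outside annotated genes and Mir140 (chromosome 8, 107551244 to 107551313, plus strand) overlaps an exon of Wwp2.
miR-124-3p, dominant start: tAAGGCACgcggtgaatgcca
miR-124-3p, 1 nt upstream: tTAAGGCAcgcggtgaatgc
miR-124-3p, 1 nt downstream: aAGGCACGcggtgaatgcca
miR-1839-5p, dominant start: aAGGTAGAtagaacaggtcttg
miR-1839-5p, 1 nt downstream: aGGTAGATagaacaggtcttg
miR-29a-3p, dominant start: tAGCACCAtctgaaatcggt
miR-29a-3p, 1 nt upstream: cTAGCACCatctgaaatcggtt
miR-140-3p, dominant start: aCCACAGGgtagaaccacgga
miR-140-3p, 1 nt upstream: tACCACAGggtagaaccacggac

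The libraries were not alike in ways that touch these values. Counts on the 234 arms ranged from 437682 (6h-1) to 2214698 (24h-1) in the first time course and from 1319074 (6h-2) to 4274550 (NT-2) in the second. The mean length of arm tags was 20.2 nt ± 0.383 (SD over 6 libraries) for the first time course and 21.1 nt ± 0.151 for the second. In NT-1, 51.3% of the arm counts were tags of 18 or 19 nt, against 4.53% to 16.9% in the other 5 libraries of the first time course and 0.908% to 3.77% in the second. Across 168 arms, the log2 odds of a shifted start in 0.5h-1 and 24h-1 correlated at r = 0.981, a description across arms that share their hairpins. No other pair of libraries reached that value, and the correlation was 0.797 to 0.981 within the first time course and 0.911 to 0.962 within the second. The neuronal arms of miR-124, miR-128 and miR-9 held 5.83% to 30.5% of the arm counts per library, the liver arm miR-122-5p 0.000914% to 0.0322%, the red blood cell arms of miR-144 and miR-451a 0.00611% to 0.198% and the muscle arms miR-1a-3p and miR-206-3p 0.259% to 1.69%. Counts are of PCR-amplified reads that carry no molecular identifier, so the 95% Wilson intervals given below cover counting error only. Mice are named as individuals in the study, but the labels do not say how the 2 libraries of a time point were handled apart, and p-values measure the spread between these libraries. The study sequenced the second time course after the first, as a biological replicate, and describes a pronounced batch effect between them. Its authors judged accurate changes in expression level unlikely to come from these sequencing data. Time course and batch cannot be told apart here.

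Shifted starts made up 6.19% of all arm counts, and they lay close to the dominant start. Of the shifted counts, 61.9% began 1 nt downstream, 25.9% 1 nt upstream, 7.84% 2 nt downstream, 2.38% 3 nt downstream and 0.639% 2 nt upstream, and 1.21% lay more than 3 nt away. A few arms held most of these counts. miR-101a-3p alone gave 27.1% of them, followed by miR-124-3p (11%), miR-1839-5p (8.95%), miR-101b-3p (7.13%) and miR-383-5p (6.79%), together 61.0%.

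Most arms had precise 5′ ends and a minority did not. The mean of the library percentages had a median of 2.42% over the 234 arms, with quartiles of 0.538% and 15.1%. It was under 1% in 86 arms, 10% or more in 72, 25% or more in 41 and 50% or more in 13. The 13 include miR-8114-5p (91.1%), miR-1934-3p (74.5%), miR-504-5p (57.2%) and miR-708-3p (54.7%), whose dominant start changed without library 3h-1. They also include miR-218-2-3p (75.4%), whose dominant start lies in the loop. Among the 1174 combinations of arm and shift, 118 averaged 5% or more of their arm, and 83 of these lay 1 nt from the dominant start. At the limit of 1000 counts, miR-146a-5p with 1008 counts (1.79% shifted) and miR-342-5p with 1036 (2.41%) were just inside, and miR-1298-3p with 996 (3.92%) and miR-135a-5p with 997 (none shifted) just outside.

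The miR-101 family showed shifted starts that exchanged seeds between its members. miR-101a and miR-101b are near-identical paralogs, well known as repressors of the histone methyltransferase Ezh2. The dominant miR-101a-3p tag had the seed TACAGTA and its form 1 nt downstream the seed ACAGTAC, which was the dominant seed of miR-101b-3p, and the upstream form of miR-101b-3p had the seed TACAGTA in turn. The tags of the 2 paralogs differ inside the sequence shown, and 0.0398% of miR-101a-3p counts and none of miR-101b-3p counts were in tags that match more than 1 arm.

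The downstream form of miR-101a-3p averaged 46.3% ± 19 (SD, n = 12) of its arm. It made up 55.1% in NT-1, 28.2% in 0.5h-1, 78.0% in 1h-1, 71.6% in 3h-1, 72.1% in 6h-1 and 30.6% in 24h-1. In the second time course it made up 32.6% in NT-2, 37.4% in 0.5h-2, 31.9% in 1h-2, 31.8% in 3h-2, 55.3% in 6h-2 and 31.4% in 24h-2. Thus 5 libraries had more of the shifted than of the dominant form, 4 of them in the first time course. The widest counting interval of a library for this arm was ± 0.655 points, far less than the distances between most libraries. With tags of 21 to 23 nt alone, a restriction chosen after seeing the data, the mean shifted share of the arm was 20.8%.

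The upstream form of miR-101b-3p averaged 25.5% ± 15.1 (SD, n = 12). It made up 17.7% in NT-1, 48.8% in 0.5h-1, 7.92% in 1h-1, 4.33% in 3h-1, 8.75% in 6h-1 and 46.6% in 24h-1, and between 15.1% (0.5h-2) and 36.3% (NT-2) across the other time course (median 31.5%). In the 5 libraries where the downstream form led on miR-101a-3p, the upstream form of miR-101b-3p held 4.33% to 21.4%, so that the seed ACAGTAC was the commoner of the pair on both arms there.

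The seed TACAGTA also arose from miR-144-3p, a red blood cell miRNA, whose upstream form averaged 8.83% ± 9.08 (SD, n = 12), from 1.56% (24h-1) to 36.0% (1h-2). With 5213 counts over all libraries this arm was sparse. miR-101c-3p reached the seed ACAGTAC by a start 1 nt downstream, at 7.68% of its arm. In all, 7 of the 118 shifts that averaged 5% or more carried the dominant seed of another arm. The other three were the exchange between miR-378a/378c-3p (7.32%, 1 nt downstream) and miR-378b-3p (9.40%, 1 nt upstream) and the upstream form of miR-124-3p, whose seed TAAGGCA was that of miR-6540-5p.

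Among arms with 10000 or more counts, the 12 with the largest shifted share were named. They included 7 from the Dlk1-Dio3 region, a maternally expressed miRNA cluster of the brain: miR-127-5p, miR-409-3p, miR-300-3p, miR-411-5p, miR-382-5p, miR-770-3p and miR-485-3p. The other five were miR-9-3p, miR-101a-3p, miR-3473b with miR-3473e (3p), miR-330-3p and miR-383-5p. The cluster held 47 of all 234 arms. Its share of the 110 arms with 10000 or more counts was not worked out, so the 7 of 12 is a description only. The mean shares of the 12 ran from 38.9% to 59.5%, and since the rule ranked them on this value it is a description. With the dominant start set by the first time course alone, miR-382-5p had 65.6% instead of 41.6% and miR-330-3p 56.5% instead of 44.0%. With the second alone, miR-383-5p had 58.3% instead of 41.9%. With tags of 21 to 23 nt alone, miR-127-5p had 45.9% instead of 59.5% and miR-9-3p 40.3% instead of 56.3%.

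miR-127-5p, from a hairpin that lies antisense to the imprinted gene Rtl1, had 59.5% ± 12.6 (SD, n = 12) of its counts off the dominant start, spread over 2 downstream starts. The start 2 nt downstream held 15.6% to 46.6% of the arm in the first time course (median 37.8%) and 35.05% to 45.4% in the second (median 40.6%). The start 3 nt downstream held 13.7% to 45.1% in the first time course (median 33.5%) and 4.93% to 15.8% in the second (median 8.40%). The ranges of the third nucleotide thus overlapped only between 13.7% and 15.8%, while those of the second overlapped throughout the second time course.

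miR-9-3p, the partner strand of a neural progenitor miRNA, was nearly evenly divided. Its downstream start held 34.3% to 71.8% in the first time course (median 65.9%) and 37.9% to 49.3% in the second (median 45.3%). Over all libraries the dominant start led by only 0.323 points of the arm, the smallest margin of all arms, so which form is called shifted turns on few counts. The downstream start was the more frequent in 5 of 12 libraries.

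miR-411-5p was divided in the same way, with a margin of 0.372 points. Its downstream start held 42.8% to 67.5% in the first time course (median 50.02%) and 39.9% to 49.0% in the second (median 43.8%). The mean shifted share of miR-411-5p was 12.3% with tags of 21 to 23 nt alone, so the even division held only with the other lengths included. miR-409-3p held 36.9% to 63.6% (median 55.5%) and 32% to 60.5% (median 42.3%) at the start 1 nt downstream and a further 6.78% ± 1.70 (SD, n = 12) at the start 1 nt upstream. Its ranges overlapped almost fully between time courses.

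miR-300-3p and miR-485-3p had shifted starts more than 1 nt away besides nearer ones. The start 1 nt downstream averaged 9.89% of miR-300-3p and 11.2% of miR-485-3p. The start 2 nt downstream of miR-300-3p averaged 17.4% and was its most counted shifted start over all libraries. The start 4 nt downstream of miR-300-3p held 23.9% to 54.2% of its arm in the first time course and 8.32% to 15.7% in the second, ranges that did not overlap. The start 2 nt upstream of miR-485-3p held 6.56% to 32.5% in the first time course (median 8.96%) and 11.5% to 43.3% in the second (median 32%). In the first time course only 0.5h-1 (32.5%) and 24h-1 (30.7%) exceeded 10%.

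miR-382-5p, another arm of the cluster, showed the same pair of libraries apart. Its start 1 nt downstream held 67.3% in 0.5h-1 and 68.1% in 24h-1 and 19.3% to 28.6% in the other 4 libraries of the first time course. In the second time course it held 49.6% in NT-2, 42.1% in 6h-2 and 19.2% to 24.2% elsewhere. miR-770-3p, from the Meg3 transcript, was shifted both ways, by 23.4% ± 13.4 upstream and 16.4% ± 10.7 downstream (SD, n = 12, 1 nt each).

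Outside the cluster, the upstream start of miR-330-3p held 23.6% to 62.1% in the first time course (median 41.2%) and 19.5% to 53.7% in the second (median 46.1%). The downstream start of miR-383-5p, an intronic miRNA, held 18.7% to 43.8% (median 32.9%) and 33.0% to 61.6% (median 51.6%). Both time courses overlapped on both arms. The arm of miR-3473b and miR-3473e (3p) was joined from 17 hairpins of like sequence, 15 of them unnamed repeat-like copies, and its share of 45.3% ± 21.7 (SD, n = 11) covers their sum. It was 1.72% in 3h-1 and 17.6% to 72.5% in the other libraries with 20 or more counts.

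The 10 most counted arms behaved differently from these, except miR-101a-3p and, to a lesser degree, miR-1839-5p, miR-124-3p and miR-29a-3p. The let-7 miRNAs, which restrain proliferation and are kept low by Lin28 in stem cells, started almost always at the same base. let-7f-5p with 5383467 counts had 0.134% ± 0.0263 shifted, let-7g-5p 0.244% ± 0.114 and let-7c-5p 0.178% ± 0.0615 (SD, n = 12 each). All 9 let-7 family arms averaged under 1%, from 0.0742% to 0.649%, although they held 44.8% of the arm counts.

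The remaining precise arms were miR-143-3p, a smooth muscle miRNA, at 0.330% ± 0.159, miR-103/107-3p at 0.882% ± 0.811 and the neuronal miR-128-3p at 1.12% ± 0.837 (SD, n = 12 each). miR-29a-3p, of a family that targets de novo DNA methyltransferases and collagens, began 1 nt upstream in 5.88% ± 1.85 (SD, n = 12) of its counts, with 10.5% in 0.5h-2 and 4.35% to 8.02% in the other 11 libraries.

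miR-124-3p, the most neuron-specific of these miRNAs, had 16.9% ± 4.68 (SD, n = 12) off the dominant start and was shifted both ways. Its upstream form held 2.22% to 9.86% in the first time course (median 6.66%) and 9.79% to 12.9% in the second (median 11.5%). The downstream form held 6.19% to 22.2% in the first time course (median 10.7%) and 2.59% to 3.47% in the second (median 3.25%). The downstream form was thus higher in every library of the first time course than in any of the second, with the ranges of the upstream form meeting at their edges. The mean shifted share was 4.74% with tags of 21 to 23 nt alone.

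miR-1839-5p began 1 nt downstream in 28.0% ± 11.7 (SD, n = 12) of its counts. This share was 48.8% in 0.5h-1, 50.6% in 24h-1 and 25.3% to 33.3% in the other 4 libraries of the first time course, and 31.8% in NT-2 against 15.9% to 20.5% in the other 5 of the second. Since the hairpin is also annotated as a small Cajal body RNA, fragments of that RNA cannot be told apart from the miRNA.

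Lists of related miRNAs, which were chosen with results of these data known, are given as counts beside the 30.8% of all 234 arms that averaged 10% or more. Of 47 arms of the Dlk1-Dio3 cluster, 20 (42.6%) averaged 10% or more, with a median of 7.48% against 2.42% over all arms, from 0.0232% to 59.8%. Of 14 arms of neuronal miRNAs, 7 did (median 11.3%), among them miR-124-3p, miR-9-3p and miR-137-3p. They also include miR-218-2-3p, whose dominant start lies in the loop, with forms 21 and 22 nt downstream counted as shifted. All 3 arms of the miR-101 family did, 3 of 9 of the miR-30 family and 1 of 8 of the miR-99/100 and miR-125 families. None of the 9 let-7, 3 miR-29 and 5 miR-181 arms did. Of 3 arms of oligodendrocyte miRNAs 1 did, and of 2 arms of miRNAs made without Drosha 1 did, miR-320-3p (30.0% ± 16.6, SD, n = 12). The other was miR-1981-5p, at 0.299% ± 0.864 (SD, n = 12).

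Arms from the 3′ side of the hairpin had more shifted starts than arms from the 5′ side. In each library the median over 3p arms was larger, between 3.30% and 7.25%, than the median over 5p arms, between 0.281% and 0.800%. The difference was -4.44 points ± 1.06 (SD, n = 12, 5p minus 3p), with the same sign in 12 of 12 libraries. Of 118 5p arms, 24 (20.3%) averaged 10% or more, and of 116 3p arms 48 (41.4%). The same arms recur in every library and the shares are those that the rule defined, so this is a description with no test.

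Among tags of 18 nt or more, the 3′ end moved along with the start only in part. Tags that began 1 nt downstream were shorter than those at the dominant start by a median over arms of -0.346 nt ± 0.111 (SD, n = 12; difference negative in 12 of 12 libraries, exact permutation test, two-sided, p = 0.000488). Tags that began 1 nt upstream were longer by 0.200 nt ± 0.116 (SD, n = 12; positive in 11 of 12 libraries, -0.0262 nt in NT-1, exact permutation test, two-sided, p = 0.000977). A 3′ end that stayed in place would give a difference of 1 nt in size and one that moved along would give none. The medians rest on 31 to 73 arms per library downstream and 19 to 67 upstream with 20 or more counts at both starts. The same arms recur in every library, so these p-values concern the libraries and not arms in general. Tags under 18 nt were left out, so a tag of 18 nt that lost only its first base could not be counted. With tags of 20 nt or more, the differences were -0.325 nt ± 0.113 downstream and 0.169 nt ± 0.126 upstream (SD, n = 12 each). The effect of leaving out tags under 18 nt was not tested.

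The first base and the reference start also went with the shifted share. A T (U in the RNA) began the dominant tag of 94 of all 234 arms (40.2%). It began that of 45 of 86 arms (52.3%) under 1% and of 17 of 72 arms (23.6%) at 10% or more. The most frequent shifted tag began with T in 27 of those 72 (37.5%). RefSeq (GRCm38.p6) gave a mature sequence for 200 of the 234 arms by symbol, and the dominant start was the RefSeq start in 178. It was so in 139 of 140 arms under 10% and in 39 of 60 at 10% or more. In 16 of the 22 arms with another RefSeq start, that start was the most frequent shifted one, as for miR-101a-3p, miR-411-5p and miR-142-5p (1, 1 and 2 nt downstream) and for miR-101b-3p, miR-140-3p and miR-330-3p (1 nt upstream each). These counts over arms describe the arms and were not tested.

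The dominant start was not the leading start everywhere. In 37 arms another start led in at least 1 library with 20 or more counts of the arm, and in 7 arms in at least 6 libraries. In 7 arms the dominant start itself changed when a single library was left out. Without 3h-1 it changed in miR-411-5p and in 4 arms with fewer counts, of which 3h-1 held 37.5% to 90.6%. That library held 1674 of the 1848 counts of miR-1934-3p, 1476 of the 2326 of miR-8114-5p, 813 of the 1680 of miR-504-5p and 3644 of the 9717 of miR-708-3p. Shifted shares there were 0.777%, 2.44%, 4.92% and 1.07%, against at least 80.0%, 99.3%, 45.5% and 37.9% in the other libraries with 20 or more counts.

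The time courses differed in the shifted share of all arm counts. It was 11.9% in NT-1, 10.1% in 0.5h-1, 11.5% in 1h-1, 11% in 3h-1, 14.5% in 6h-1 and 9.66% in 24h-1. In the second time course it was 5.72% in NT-2, 5.15% in 0.5h-2, 4.96% in 1h-2, 3.40% in 3h-2, 4.49% in 6h-2 and 2.83% in 24h-2, so that the ranges did not overlap. The difference was -7.01 points ± 1.69 (SD over 6 time points, second minus first) and had the same sign at 6 of 6 time points (two-sided exact permutation test, flipping each time point, p = 0.03125, which is the least that 64 flips can give). Counting intervals were ± 0.0161 to 0.104 points. The dominant start was set over all 12 libraries, and most libraries of the second time course held more counts. Starts that led there thus weighed more in the choice. Over 21 alternatives, among them the dominant start taken from either time course alone, the difference ran from -8.00 to -1.46 points.

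Other summaries of the share did not differ past the threshold. The median share over arms, which weights arms equally, was 1.95% ± 0.512 for the first and 1.905% ± 0.181 for the second time course (SD over 6 libraries each). The difference of -0.0477 points ± 0.579 (SD) had a two-sided p of 0.875 in the same exact permutation test. With tags of 21 to 23 nt alone, the share of all arm counts was 5.43% ± 1.92 and 3.97% ± 1.11 (SD over 6 libraries each), and the difference of -1.46 points ± 2.47 (SD) had an exact permutation p of 0.1875. Such tags were 23.2% to 60.4% of the arm counts of a library in the first time course and 58.6% to 64.5% in the second.

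Within arms, the odds of a shifted start were compared between time courses with edgeR's quasi-likelihood test on shifted and unshifted counts, with time point as covariate. Of 234 arms, 172 had 10 or more shifted counts in at least 2 libraries and were tested, so arms with few shifted counts in both time courses did not enter. An arm could enter through the libraries of a single time course. After Benjamini-Hochberg adjustment 42 of 172 arms (24.4%) differed, 19 (11.0%) with more and 23 (13.4%) with fewer shifted starts in the second time course. Among the 42, miR-129-1-3p and miR-204-3p had 0% shifted in every first time course library with 20 or more counts. miR-8114-5p was also among them (log2 odds ratio 8.47), but its dominant start was set by 3h-1. Its shifted share was 2.44% there and at least 99.3% in the other libraries with 20 or more counts. The ranges of the 6 libraries did not overlap in 19 of the 172 arms (11.0%), of which 17 were among the 42. The 42 comprised 16 of 73 5p arms and 26 of 99 3p arms tested.

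Arms with more shifted starts in the second time course, named by the largest odds ratio among those with 10000 or more counts, were miR-323-3p, miR-30e-5p, miR-99a-5p, miR-140-3p and miR-341-3p. miR-30e-5p, of a broadly expressed family, had 0.421% to 1.39% (median 0.634%) in the first time course and 3.23% to 5.06% (median 4.04%) in the second, with no overlap (log2 odds ratio 2.59 ± 0.66 SE, edgeR adjusted p = 0.0051). miR-99a-5p, known to target mTOR, lay between 0.0235% and 0.498% in the first and 0.414% and 0.887% in the second (2.38 ± 0.58 SE, edgeR adjusted p = 0.0038). For miR-140-3p the range was 4.94% to 9.34% in the first and 7.92% to 55.1% in the second, where only 6h-2 (7.92%) fell within the first (2.26 ± 0.43 SE, edgeR adjusted p = 0.000207). Its upstream start, the RefSeq one, held 0.795% to 4.84% and 3.20% to 53.3%.

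miR-323-3p of the Dlk1-Dio3 cluster lay between 0.503% and 8.46% (median 1.00%) and between 3.10% and 20.1% (median 15.8%), with a log2 odds ratio of 3.06 ± 0.69 SE (edgeR adjusted p = 0.0017). miR-341-3p, from an intron of Rian, lay between 12% and 22.9% and between 15.1% and 58.6% (1.98 ± 0.51 SE, edgeR adjusted p = 0.0051), with its shifted counts mainly 4 nt upstream. Its sequence repeats in steps of 4 nt, and the call turned when shifts were limited to 3 nt (-0.94, edgeR adjusted p = 0.197) and when the dominant start was taken from the second time course alone (-2.95, edgeR adjusted p = 0.000128). With tags of 20 nt or more it was 0.85 (edgeR adjusted p = 0.215).

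Arms with fewer shifted starts in the second time course, named in the same way, were miR-148a-3p, miR-25-3p, miR-125a-5p, miR-181a-5p and miR-29c-3p. miR-148a-3p, known to target Dnmt1, lay between 1.12% and 3.77% (median 2.88%) in the first time course and reached at most 0.870% in the second, where 0.5h-2 had 0 of 781 counts, which allows a share of up to 0.384% (log2 odds ratio -3.06 ± 0.79 SE, edgeR adjusted p = 0.0051). The odds ratio was -2.23 with tags of 20 nt or more (edgeR adjusted p = 0.0717) and -2.56 without 0.5h-1 and 24h-1 (edgeR adjusted p = 0.0605). miR-29c-3p lay between 0.393% and 8.59% (median 2.33%) and between 0.191% and 0.366% (median 0.314%), with no overlap (-2.62 ± 0.59 SE, edgeR adjusted p = 0.0017). Without the lengths outside 21 to 23 nt its odds ratio was -0.24 (edgeR adjusted p = 0.826).

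miR-181a-5p lay between 0.0655% and 0.903% (median 0.316%) and between 0.0113% and 0.107% (median 0.0531%), giving -2.89 ± 0.66 SE (edgeR adjusted p = 0.0017). Without 0.5h-1 and 24h-1 together, a choice made after seeing the data, it was -1.74 (edgeR adjusted p = 0.170), and with only the first 18 nt matched it was 0.75 (edgeR adjusted p = 0.251). miR-25-3p, from an exon of Mcm7, had a median of 0.597% against 0.175% and rested on 1h-1 (2.80%) together with NT-1 (6.32%), while the other 4 libraries of the first time course were at or below 0.613% (-2.93 ± 0.88 SE, edgeR adjusted p = 0.0138). The odds ratio was -2.47 without NT-2 (edgeR adjusted p = 0.064), -2.51 without 1h-2 (edgeR adjusted p = 0.0985) and -2.22 with only the first 18 nt matched (edgeR adjusted p = 0.0526). miR-125a-5p had a median of 2.14% against 0.306% (-2.92 ± 0.85 SE, edgeR adjusted p = 0.0114), and its adjusted p was 0.0514 to 0.0945 without 1h-1, 1h-2, 24h-1 or 24h-2 (edgeR, each left out alone). In 6h-1 it had 0 of 41 counts, which allows a share of up to 7.32%.

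The arm with the smallest p was miR-128-3p, with 1.41% to 2.53% shifted in the first time course and 0.311% to 0.516% in the second (log2 odds ratio -2.38 ± 0.32 SE, edgeR adjusted p = 1.84e-06). The odds ratio turned, with tags of 21 to 23 nt alone, to 0.82 (edgeR adjusted p = 0.2096) and the mean share over all libraries was 0.121%. miR-101a-3p was also among the 42 (-1.19 ± 0.40 SE, edgeR adjusted p = 0.0271), though 0.5h-1, 24h-1 and the second time course overlapped. Its call was kept in 14 of 25 alternative fits and lost, among others, with DESeq2 (-1.19, adjusted p = 0.124), limma (-1.18, adjusted p = 0.145) and tags of 21 to 23 nt (-0.09, edgeR adjusted p = 0.881). It was also lost without NT-1 (edgeR adjusted p = 0.133), NT-2 (0.128), 1h-1 (0.1897), 1h-2 (0.186), 6h-1 (0.0758) or 6h-2 (0.0780), each left out alone. The activity-regulated miR-132-3p, with 2263 counts in all, had 51.3% to 83.9% in the first time course and 23.1% to 40.2% in the second (-2.47 ± 0.61 SE, edgeR adjusted p = 0.00399). Its shifted counts include a form 16 nt upstream, toward the loop of the hairpin, that averaged 13% of the arm, and with shifts of at most 3 nt the odds ratio was -2.05 (edgeR adjusted p = 0.00846). These 3 arms were singled out after their values were seen.

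Read against the 24.4% called among all tested arms, 8 of 37 tested arms of the Dlk1-Dio3 cluster differed, 3 with more and 5 with fewer shifted starts in the second time course. Of 13 arms of neuronal miRNAs 5 differed, miR-138-5p upward and miR-128-3p, miR-132-3p, miR-137-3p and miR-218-5p downward. In the miR-30 family 3 of 8 differed, all upward, and in the miR-29 family 2 of 3, both downward. In the remaining lists 1 of 8 let-7 arms and 1 of 3 miR-101 arms, 2 of 3 miR-181 arms, 2 of 7 arms of the miR-99/100 and miR-125 families, miR-320-3p as the 1 Drosha-independent arm tested and none of 2 oligodendrocyte arms differed.

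The number of arms called was smaller in some subsets. It was 22 without 1h-1, 21 without 1h-2 and 27 without 0.5h-1 and 24h-1 together, with 41 of the 42 arms entering each fit. With tags of 21 to 23 nt alone 22 arms were called, of which 7 were among the 42 with the same direction. Only 30 of the 42 entered that fit. Tag length differed between the time courses by the values given above, and its part in these differences was not tested.

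No change in shifted starts with ECS was detected at this depth and replication. In edgeR's test of each time against untreated mice, 0 of 860 pairs of arm and time (0% called) passed an adjusted p of 0.05. At an unadjusted p under 0.05 there were 1 arm at each of 0.5, 1, 6 and 24 h and 4 arms at 3 h, out of 172. DESeq2 and limma also gave 0. The median standard error of the log2 odds ratio was 1.31 to 1.42 at the 5 times. Changes of a few fold in the odds, and many larger ones, could thus not be told from the spread between 2 libraries. For miR-22-3p at 1 h, a log2 odds ratio of -3.02 ± 1.11 SE had an edgeR adjusted p of 0.990. An F test over the 6 time points called 0 of 172 arms, with none at an unadjusted p under 0.05.

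Among arms with 10000 or more counts, the 3 with the smallest p in that F test were miR-22-3p, miR-34c-5p and miR-7b-5p, each with an edgeR adjusted p of 0.998. miR-22-3p had 1.15% shifted starts in NT-1 and 0.322% in NT-2 and between 0.0677% and 0.215% in the 10 ECS libraries. miR-34c-5p, a p53-responsive miRNA, had 0.240% and 0.0261% in untreated libraries, 0.419% and 0.176% at 6 h and at most 0.0806% elsewhere. miR-7b-5p had 1.15% and 0.413% at 1 h and 1.14% and 0.548% at 3 h, against 0 of 307 counts (up to 0.977%) and 0.140% in untreated mice.

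With the time course as a block the median standard error fell to 1.08 to 1.17, and 1 of 172 arms (0.581%) was called at 3 h, which was also the only arm called by the F test (edgeR adjusted p = 1.88e-05 and 0.000206). This arm was miR-8114-5p, with 2.44% shifted in 3h-1 and at least 99.3% in the other libraries with 20 or more counts of it, so the call rests on the library that set its dominant start. Without 3h-2, which left 3h-1 alone at that time and assumed to vary like the others, 8 arms were called at 3 h and 2 by the F test, again with miR-8114-5p first.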

How the data were processed

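Small RNA from mouse hippocampus was size-selected on a gel and sequenced as 12 libraries. The labels gave each library its time and its replicate number, which the study uses to mark its time courses. The untreated pair is numbered here as in the labels, whose numbering the read totals in the supplement of the study share, while its table of read classes lists that pair in the reverse order. The deposited values are whole-number counts of accepted reads per distinct insert, made by the authors by trimming adapters from Illumina reads with their miR-Intess pipeline, with no alignment or normalization. The study mapped its reads to an older mouse build for its own tables, which were not used here.

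Tags of 18 nt or more were matched exactly, over their full length, to the miRNA hairpins of GENCODE M21 (GRCm38), each hairpin was halved into a 5p and a 3p arm, hairpins whose dominant tags are the same, or of which one begins with the other, were joined, and tags that match several arms were split equally. An untemplated base at either end, or a sequencing error, takes a tag out. Percentages of an arm need 20 or more counts in a library. RefSeq mature starts (GRCm38.p6) were matched by symbol. Members and lists were chosen with earlier results of these data known.

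The odds of a shifted start were fitted in edgeR 4.0.16 (R 4.3.3) by the quasi-likelihood test over all 172 arms with 10 or more shifted counts in at least 2 libraries, with an adjusted p (Benjamini-Hochberg) under 0.05 as threshold. Time point was the covariate for the time courses. ECS was tested without the time course as block, and with it as an alternative. Single values were tested by exact permutation in scipy 1.17.1. limma 3.58.1 and DESeq2 1.42.0 were alternatives, as were other rules of matching, length, filter and dominant start and leaving out each library. The scripts were tested on simulated data. Named arms have 10000 or more counts and are the 12 with the largest shifted share, the 10 with most counts, the 5 per direction with the largest odds ratio between time courses and, since no arm passed for ECS, the 3 with the smallest F test p. The replicate numbers pair the libraries by time course: deviations from the time point mean correlated at 0.401 on average (0.179 to 0.751, 15 pairs, 168 arms). No 2 libraries agreed within sampling noise. Accepted reads ranged from 1897490 to 7657222 per library, and 10.1% to 69.7% of them matched a hairpin exactly.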

Additional observations from a re-analysis of the deposited data

Results flagged for a closer look

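In 82 groups of 6 libraries (1 measure in 1 time course), 15 had a library that stood apart by Dixon's test at the 95% level, which chance gives in about 1 in 20 groups. NT-1 stood apart in the first time course for the share of tags of 18 or 19 nt (51.3% against 4.53% to 16.9%) and for the shifted share of miR-9-3p (49.0% against 65.8% to 75.2%), miR-103/107-3p (3.29% against 0.339% to 1.17%), miR-99a-5p (0.498% against 0.0235% to 0.185%) and miR-22-3p (1.15% against 0.0677% to 0.215%).

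6h-2, the library with fewest reads, stood apart in the second time course for the share of tags of 18 or 19 nt (3.77% against 0.908% to 1.69%). Its shifted share was above the other libraries for miR-101a-3p (55.4% against 31.5% to 37.5%) and miR-34c-5p (0.176% against 0.0261% to 0.0806%). It was below them for miR-330-3p (19.9% against 42.8% to 54.1%), miR-485-3p (19.1% against 42.8% to 54.1%) and miR-341-3p (15.1% against 45.2% to 58.6%).

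In 0.5h-2 the shifted share stood apart for miR-29a-3p (10.6% against 4.53% to 4.80%), miR-128-3p (0.516% against 0.311% to 0.360%) and the joined 3p arm of miR-3473b and miR-3473e (29.3% against 56.8% to 60.3%). In NT-2 it did so for miR-1839-5p (32.1% against 16.5% to 20.8%).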

How the results depend on the processing

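Among the summary results, 197 of the values under alternatives were taken as unchanged and 12 were not. A count was unchanged if it stayed within 1.5 fold. A tested value was unchanged if it kept direction and side of the threshold. Where a sign turned from a value past no threshold, or too few pairs were left to reach it, a move under 1 SD was unchanged. The difference in median share over arms thus ran from -0.337 to 0.472 points. With arms of 10000 or more counts, 28 arms averaged 10% or more shifted (72 with all arms), 19 had another leading start in some library (37) and 27 differed between time courses (42), with fewer arms entering each count. With tags of 21 to 23 nt alone, chosen after seeing the data, the difference between time courses was -1.46 points. In that setting 22 arms were called, and 30 of the 42 arms entered the fit. Without 0.5h-1 and 24h-1 together 27 arms were called. limma called 30 arms, DESeq2 38 and the fit without time point 48. Leaving out 1 library at a time gave 21 to 43 arms between time courses, 0 to 8 pairs of arm and time after ECS and 0 to 2 arms in the F test. The replicate block gave 1 such pair and 1 arm in the F test, and it changed no other ECS call. The log2 odds ratio of miR-341-3p turned to -0.94 with shifts of at most 3 nt and to -2.95 with the dominant start of the second time course, and that of miR-181a-5p to 0.75 with only the first 18 nt matched; the cause was not tested. With tags of 21 to 23 nt alone, 12 named mean shares moved by more than 1 SD between libraries, among them miR-770-3p to 18.2%. Depth limits the sparse arms most: 6h-1 had 437682 arm counts.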
